A study of Mus musculus with 6 samples.

Results

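The EphB receptors and the ephrin-B ligands are 8 genes of the mouse, the receptors *Ephb1*, *Ephb2*, *Ephb3*, *Ephb4* and *Ephb6* and the ligands *Efnb1*, *Efnb2* and *Efnb3*. They were chosen by name, with earlier results of these data known. All 8 were found among the 55401 genes of a table of RNA-seq counts and passed the filter on low counts, as 22318 genes did. The counts come from primary Schwann cells (SCs), the glia of peripheral nerves, grown from dorsal root ganglia (DRGs) of adult mice. There were 3 WT and 3 *Plxnb1*-/- cultures, the latter from mice with a transmembrane-lacZ-neo gene trap in the gene of the semaphorin receptor Plexin-B1. Both genotypes were kept on a C57BL/6 background, and the WT cultures came from littermates. The labels call the controls WT, whereas the study's methods also allow heterozygous littermates as controls. All cultures were grown with 2 µM forskolin, 10 nM neuregulin and 10% serum, were depleted of fibroblasts with an antibody to Thy1, and were used at passages 3 to 5, with a stated purity above 80%. The labels do not say whether replicates came from separate animals, so the spread between them may be partly technical.

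Eph receptors form the largest family of receptor tyrosine kinases, and their ligands, the ephrins, are also held on the cell surface, so that signaling needs contact between cells. Ephrin-B ligands cross the membrane, and a bound pair signals in both directions, forward through the receptor and in reverse through the tail of the ligand. Contact usually leads to repulsion, which sorts cells, guides axons and keeps arteries and veins apart. In the cut nerve, ephrin-B on fibroblasts is known to act on EphB2 of SCs, and through the transcription factor Sox2 and N-cadherin it gathers SCs into cords. The comparison of the genotypes asks whether SCs without Plexin-B1 differ in the transcripts of this second contact-dependent guidance system.

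Libraries held between 59252048 and 77280964 counts, and the floor of 3 counts lay between 0.0383 and 0.0513 CPM, which here are counts scaled to library size after TMM normalization. The targeted gene *Plxnb1* had 61.8, 45.4 and 96.4 CPM in WT and 13.1, 16.6 and 18.6 CPM in *Plxnb1*-/- replicates 1 to 3 (log2 fold change −2.08, edgeR, adjusted p = 0.0449). The SC transcription factor gene *Sox10* lay between 432 and 580 CPM in all cultures, whereas *S100b* lay between 7.09 and 8.22 CPM. *Thy1*, the target of the fibroblast depletion, still measured between 384 and 652 CPM, and the counts do not give the share of other cells. WT replicate 2 stood apart with the lowest summed level of 8 SC markers and the highest of 6 fibroblast markers. *Plxnb1*-/- replicate 3 stood apart in sex-linked transcripts, with 11.6 CPM of *Xist* and 77.6 CPM of the Y-linked *Ddx3y*. *Xist* lay between 218 and 260 CPM in the other 5 cultures. *Ddx3y* had 2.68 and 3.57 CPM in *Plxnb1*-/- replicates 1 and 2 and 0 counts in all WT cultures, which allows at most 0.0513 CPM.

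The receptors were present at very unequal levels. Levels of different genes are compared here as CPM per kilobase (kb) of merged exons, as means ± SD over the 3 cultures of a genotype. *Ephb6* was highest of all 8 genes, with 59.98 ± 2.97 CPM per kb in WT and 66.7 ± 3.80 in *Plxnb1*-/- SCs. *Ephb3* followed among the receptors with 23.5 ± 2.11 and 26.2 ± 1.11 CPM per kb, and *Ephb2* with 18.8 ± 1.65 and 21.3 ± 1.23. *Ephb4*, best known as the receptor of venous endothelium, had 15.2 ± 0.365 and 14.2 ± 0.471 CPM per kb. *Ephb1*, a receptor of neurons, was the lowest with 0.0458 ± 0.0178 and 0.0231 ± 0.0182 CPM per kb. Among 22280 tested genes with a known length, *Ephb6* exceeded 96.7% and *Ephb1* 5.53%.

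Of the ligands, *Efnb1* had 33.7 ± 2.33 CPM per kb in WT and 36.0 ± 2.31 in *Plxnb1*-/- SCs, and *Efnb2*, the ligand of arterial endothelium and a high-affinity partner of EphB4, 13.3 ± 0.917 and 11.1 ± 0.468. *Efnb3*, a ligand best known from the nervous system's midline, stood at 0.194 ± 0.0664 and 0.254 ± 0.0277 CPM per kb. The order from high to low was therefore *Ephb6*, *Efnb1*, *Ephb3*, *Ephb2*, *Ephb4*, *Efnb2*, *Efnb3* and *Ephb1*. Over the 6 cultures the ranges of *Ephb3* and *Ephb2* overlapped, as did those of *Ephb4* and *Efnb2*, and no other neighbors in this order did. The middle of the order rests on the length used. *Ephb2* has 12608 bases of merged exons but 4804 in the transcript with the longest coding sequence, and with that length it stood at 49.5 ± 4.32 CPM per kb in WT, second after *Ephb6*, and 4 of the 8 genes kept their rank. *Ephb6*, *Ephb3*, *Efnb3* and *Ephb1* kept theirs under each of the 3 lengths tried.

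The gene with the most transcript is also the one whose protein departs from the rest, since EphB6 is a receptor without kinase activity. The stretches below show it at the level of the coding sequence. They were cut from an alignment of the coding sequences of the GENCODE transcripts (release of GRCm38) at the longest run of bases that *Ephb2* and *Ephb3* share, which covers the catalytic loop of the kinase. Capitals mark the 31 of 60 bases that are the same in all 5 receptors.
Ephb1: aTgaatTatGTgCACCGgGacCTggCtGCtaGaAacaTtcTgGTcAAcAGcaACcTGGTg
Ephb2: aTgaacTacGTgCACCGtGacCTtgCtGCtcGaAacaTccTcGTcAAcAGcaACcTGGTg
Ephb3: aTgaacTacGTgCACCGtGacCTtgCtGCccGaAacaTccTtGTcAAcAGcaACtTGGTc
Ephb4: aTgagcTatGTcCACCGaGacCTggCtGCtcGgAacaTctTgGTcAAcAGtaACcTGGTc
Ephb6: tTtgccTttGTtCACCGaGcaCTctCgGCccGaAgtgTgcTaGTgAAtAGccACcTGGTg
In this stretch *Ephb1*, *Ephb3* and *Ephb4* share 53, 56 and 50 of the 60 bases with *Ephb2*, and *Ephb6* shares 38. Over the aligned coding sequence, the identity to *Ephb2* was 72.7% for *Ephb1*, 71.1% for *Ephb3*, 62.5% for *Ephb4* and 59.1% for *Ephb6*.

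The ligands share the end of their tail, where PDZ proteins bind in reverse signaling. The last 60 coding bases, stop codon included, are given with the 46 bases that are the same in all 3 ligands in capitals.
Efnb1: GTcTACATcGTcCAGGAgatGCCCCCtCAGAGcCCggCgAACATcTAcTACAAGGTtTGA
Efnb2: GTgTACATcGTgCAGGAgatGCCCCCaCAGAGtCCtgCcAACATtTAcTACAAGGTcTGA
Efnb3: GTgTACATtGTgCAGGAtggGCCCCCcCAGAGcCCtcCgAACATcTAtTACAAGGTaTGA
Close as they are, these genes share no long identical run. The longest was 38 bases, between *Ephb1* and *Ephb3*, and of all windows of 50 bases in the 8 transcripts, 0 occurred in a transcript of another gene for 7 of the members and 0.193% did for *Ephb3*. In these transcripts, no member thus shared a window of 50 bases with another member. Near matches and exons outside these transcripts were not examined. The annotation holds 2 small overlaps with other genes. A long noncoding RNA gene on the opposite strand overlaps 152 bases of the exons of *Ephb1*, and *Zan*, also on the opposite strand, overlaps 33 bases of those of *Ephb4*. The strand setting of the counting is not given in the sources used here.

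**Figure D1:**
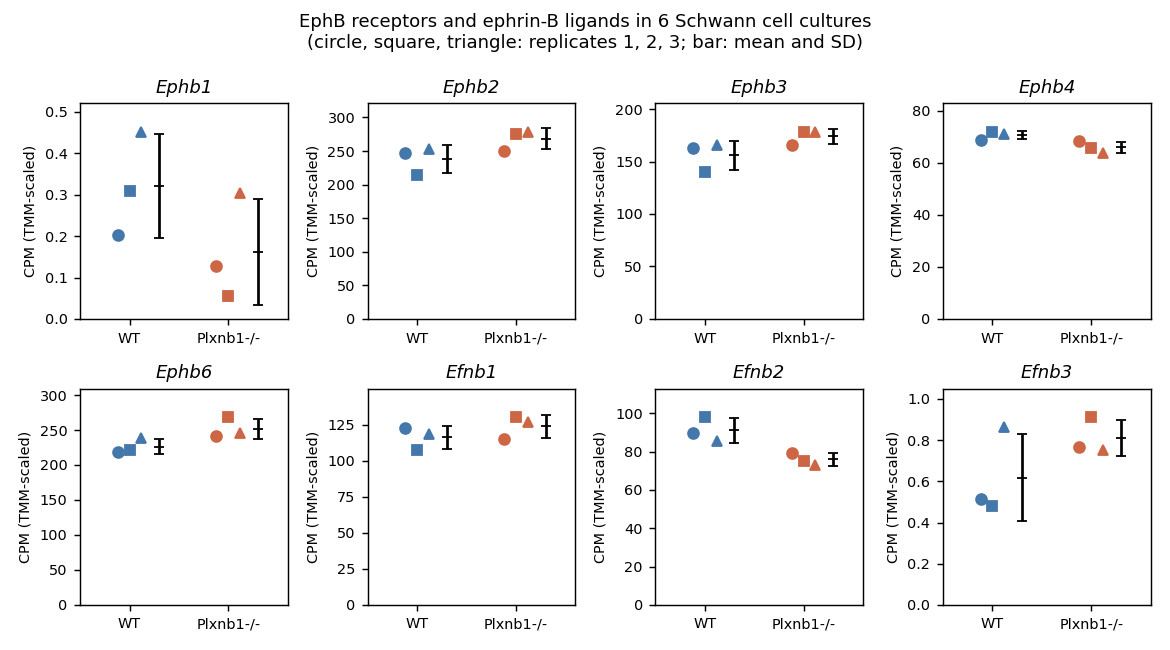
TMM-scaled CPM of each of the 8 genes in the 3 WT and 3 *Plxnb1*-/- cultures (points), with the mean and SD of each genotype (bars) and each axis starting at 0. The cultures of the genotypes do not overlap for *Ephb3*, *Ephb4*, *Ephb6* and *Efnb2*, and *Ephb1* and *Efnb3* stay below 1 CPM in each culture.

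Between the genotypes, the ligand gene *Efnb2* had the lowest unadjusted p of the 8. *Efnb2* lies on the minus strand of chromosome 8 of GRCm38 from 8617434 to 8661242. WT replicates 1 to 3 held 89.8, 97.9 and 85.5 CPM of it, and *Plxnb1*-/- replicates 1 to 3 held 79.5, 75.2 and 73.2 CPM. Each *Plxnb1*-/- culture was thus below each WT culture, and WT replicate 2 was the highest of all. The log2 fold change was −0.26 (standard error 0.06), with an unadjusted p of 0.00145 and an adjusted p of 0.266 from edgeR's quasi-likelihood test, which does not pass the threshold of 0.05. DESeq2 did call *Efnb2* (log2 fold change −0.26, adjusted p = 0.0173 from DESeq2), and the fold change is just past the threshold of 0.25 used for a call. The call of DESeq2 was lost without WT replicate 2 (log2 fold change −0.21, adjusted p = 0.0571), without *Plxnb1*-/- replicate 2 (−0.25, adjusted p = 0.158) and without *Plxnb1*-/- replicate 3 (−0.24, adjusted p = 0.338, all from DESeq2).

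*Efnb1*, on chromosome X from 99136130 to 99148991, is the ligand gene whose mosaic loss in mice disturbs the sorting of cells along tissue borders. It measured 123, 107 and 119 CPM in WT and 115, 130 and 127 CPM in *Plxnb1*-/- replicates 1 to 3. The genotypes overlapped, and the log2 fold change was 0.09 (standard error 0.06, edgeR, adjusted p = 0.548). Since *Efnb1* is X-linked, its value without *Plxnb1*-/- replicate 3, the culture low in *Xist*, is given as well, and it was 0.08 (edgeR, adjusted p = 0.820). Over all 6 fits with 1 culture left out it lay between 0.04, without WT replicate 2, and 0.14, without *Plxnb1*-/- replicate 1, and it was 0.06 without *Plxnb1*-/- replicate 2. *Efnb3*, on chromosome 11 from 69554092 to 69560205, had 33, 28 and 61 counts in WT and 60, 66 and 52 counts in *Plxnb1*-/- replicates 1 to 3. These are 0.516, 0.478 and 0.861 CPM in WT and 0.767, 0.911 and 0.750 CPM in *Plxnb1*-/- SCs, and WT replicate 3 lay within the range of the *Plxnb1*-/- cultures. The log2 fold change was 0.37 with a standard error of 0.25 (edgeR, adjusted p = 0.539), and it lay between 0.23 and 0.70 with 1 culture left out, and the spread among the WT cultures was larger than the difference of the means.

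Of the receptors, *Ephb6*, on chromosome 6 from 41605482 to 41620509, measured 219, 221 and 239 CPM in WT and 241, 268 and 246 CPM in *Plxnb1*-/- replicates 1 to 3. The cultures did not overlap, although WT replicate 3 and *Plxnb1*-/- replicate 1 were close, and the log2 fold change was 0.15 (standard error 0.06, edgeR, adjusted p = 0.306). *Ephb3*, on chromosome 16 from 21204755 to 21223305, is a receptor shared by the gut, the brain and vessels in development. It measured 163, 139.8 and 165.3 CPM in WT and 165.4, 178 and 179 CPM in *Plxnb1*-/- SCs, without overlap but with WT replicate 3 and *Plxnb1*-/- replicate 1 nearly equal. Its log2 fold change was 0.16 (standard error 0.07, edgeR, adjusted p = 0.351), and it was 0.09 without WT replicate 2, the lowest culture.

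*Ephb2*, on chromosome 4 from 136647539 to 136835988, is the receptor through which fibroblasts act on SCs. It measured 246, 214 and 253 CPM in WT and 250.4, 275 and 279 CPM in *Plxnb1*-/- replicates 1 to 3, so that *Plxnb1*-/- replicate 1 lay within the WT range. Its log2 fold change was 0.17 (standard error 0.07, edgeR, adjusted p = 0.332), and 0.11 without WT replicate 2. *Ephb4*, on chromosome 5 from 137350109 to 137378669, had lower values where these 3 receptors had higher ones, with 68.8, 72.0 and 71.3 CPM in WT and 68.2, 65.6 and 63.9 CPM in *Plxnb1*-/- SCs. The cultures did not overlap, by a margin of less than 1 CPM, and they did overlap in CPM scaled by library size alone, where those of *Ephb2* did not. The log2 fold change was −0.10 (standard error 0.04, edgeR, adjusted p = 0.355).

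*Ephb1* lies on chromosome 9 from 101922128 to 102354693, 6.74 Mb from *Plxnb1*. It had 13, 18 and 32 counts in WT and 10, 4 and 21 counts in *Plxnb1*-/- replicates 1 to 3, which is 0.203, 0.308 and 0.452 CPM and 0.128, 0.0552 and 0.303 CPM. *Plxnb1*-/- replicate 3 lay within the WT range. The log2 fold change of −1.003 had a standard error of 0.55 (edgeR, adjusted p = 0.452), and it lay between −1.78 and −0.60 with 1 culture left out. Of the 269 other tested genes within 10 Mb of *Plxnb1*, 80 (29.7%) had genotypes that did not overlap, and DESeq2 called 21 of 185 (11.4%), against 19.7% and 2.24% of all genes. The part of this region in the value of *Ephb1* was not tested.

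**Figure D2:**
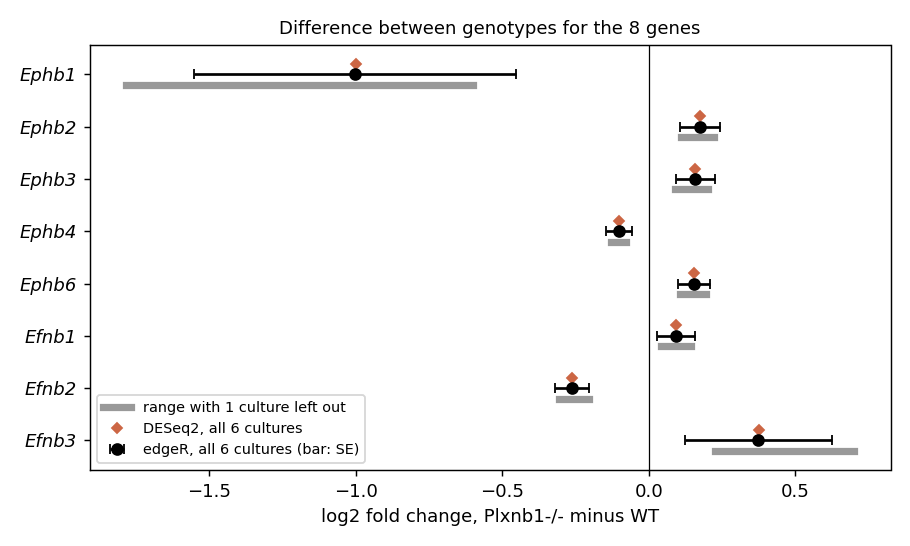
The log2 fold change of each gene, *Plxnb1*-/- minus WT, from edgeR with its standard error (black), from DESeq2 (diamonds) and as the range over the 6 fits that leave out 1 culture (gray bars). No gray bar crosses 0, and the bars of *Ephb1* and *Efnb3*, the low genes, are the widest.

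In all, 0 of the 8 genes were called by edgeR, against 0.0358% of all tested genes, and 5 of 8 had an unadjusted p below 0.05, against 13.7%. The members were chosen with earlier results of these data known and need not vary independently, so these counts are a description only. DESeq2 called 1 of the 6 members to which it gave an adjusted p, against 2.24% of genes called in either direction and 1.21% called as lower. The genotypes did not overlap for 4 of the 8, *Ephb3* and *Ephb6* as higher and *Ephb4* and *Efnb2* as lower, whereas 9.3% of all tested genes were higher and 10.4% lower without overlap. The members were 5 higher and 3 lower, with a median log2 fold change of 0.12, beside 51.5% higher and a median of 0.00496 for all tested genes. No log2 fold change of a member changed its sign under the alternatives run for it.

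The mix of receptors and of ligands was also taken within each library, as the share of a gene in the summed CPM per kb of its class, which does not depend on the scaling between libraries. *Ephb6* made up 49.6, 52.2 and 51.2% of the receptors in WT and 51.8, 53.1 and 50.9% in *Plxnb1*-/- replicates 1 to 3, with overlap. *Ephb4* made up 12.7, 13.8 and 12.4% in WT and 11.9, 10.6 and 10.8% in *Plxnb1*-/- SCs, without overlap. *Efnb2* made up 26.8, 31.3 and 26.5% of the ligands in WT and 25.7, 22.4 and 22.3% in *Plxnb1*-/- SCs, so that its share was lower in each *Plxnb1*-/- culture. *Efnb1* took 71.4 ± 2.65% in WT and 76.0 ± 1.89% in *Plxnb1*-/- SCs (SD, n = 3), the mirror image of *Efnb2* because *Efnb3* held less than 1% of the ligands. An exact two-sided permutation test gave p = 0.1 for *Ephb4*, *Efnb1* and *Efnb2*, the smallest value that 3 cultures against 3 allow, and an adjusted p of 0.267 over the 8 shares. The other 5 shares had an exact permutation p between 0.2 and 0.6, and the difference in the share of *Ephb3*, 0.457 percentage points, changed its sign to −0.136 without WT replicate 2.

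**Figure D3:**
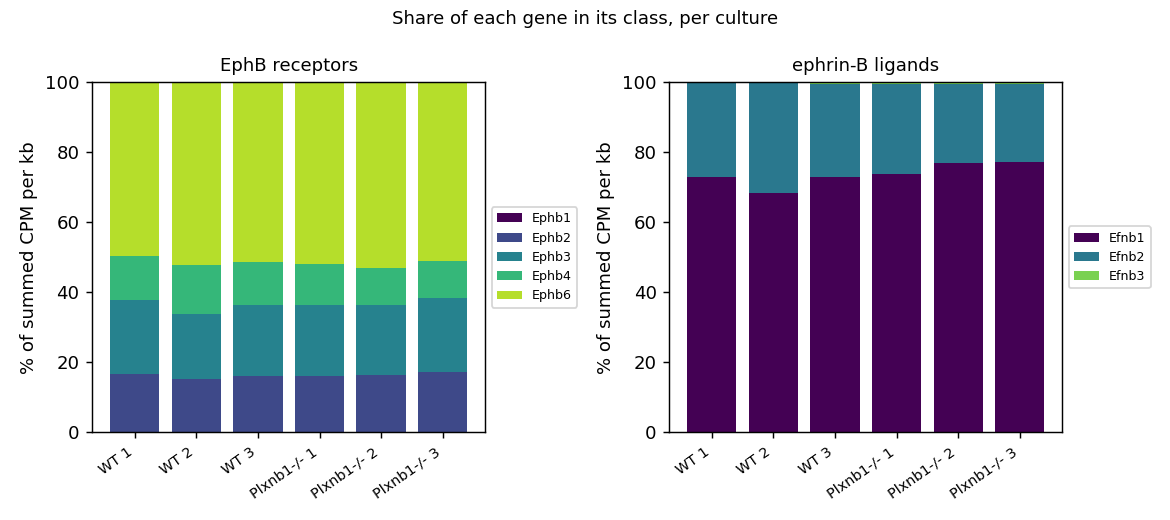
Share of each gene in the summed CPM per kb of the 5 receptors (left) and the 3 ligands (right), in percent, for each culture. *Ephb6* holds between 49.6 and 53.1% of the receptors in each culture, and *Efnb2* between 26.5 and 31.3% of the ligands in WT against 22.3 to 25.7% in *Plxnb1*-/- SCs.

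The summed markers of cell types also differed between the cultures, and in WT replicate 2 they did so as some of these genes did. In bulk samples, fewer cells of a type and less RNA per cell cannot be told apart. All 8 SC markers had higher values in *Plxnb1*-/- SCs (median log2 fold change 0.19, 0 called by edgeR, 7 with an unadjusted p below 0.05 and 0 called by DESeq2). The summed level of the SC markers lay between 2254 and 2672 CPM in WT and between 2721 and 3074 CPM in *Plxnb1*-/- cultures. Among all tested genes, 51.5% had higher values and 13.7% an unadjusted p below 0.05 from edgeR. Of 6 fibroblast markers, 5 had lower values (median −0.16, 0 called by either tool, 2 with an unadjusted p below 0.05), and the sum lay between 1441 and 2012 CPM in WT and between 1482 and 1509 CPM in *Plxnb1*-/- cultures. Without WT replicate 2, the fibroblast markers were 3 higher and 3 lower (median −0.00557), and the 8 SC markers were all higher (median 0.15). *Thy1*, the antigen of the depletion, had a log2 fold change of −0.39 (edgeR, adjusted p = 0.293), and −0.19 without WT replicate 2. In WT replicate 2, *Ephb2*, *Ephb3* and *Efnb1* were lowest and *Efnb2* was highest, whereas *Ephb6* was lowest in WT replicate 1. WT replicate 1 also had the lowest fibroblast sum of all cultures (1441 CPM), whereas its *Efnb2* (89.8 CPM) lay above that of each *Plxnb1*-/- culture.

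The members were also set against the SC markers within each library. The log2 ratio of *Ephb2* to the summed SC markers was −3.41, −3.40 and −3.40 in WT and −3.44, −3.45 and −3.46 in *Plxnb1*-/- replicates 1 to 3. The higher CPM of *Ephb2* in *Plxnb1*-/- SCs went with a ratio to SC markers that differed by −0.05 on average, and was lower in each *Plxnb1*-/- culture than in each WT culture. The ratio to SC markers was also lower without overlap for *Ephb3* (mean difference −0.06), *Efnb1* (−0.13) and *Ephb4* (−0.33), whereas that of *Ephb6* overlapped (−0.07). Of these, *Efnb1* overlapped in CPM, and *Ephb4* had lower CPM in *Plxnb1*-/- SCs as well. The log2 ratio of *Efnb2* to the same markers was −4.87, −4.52 and −4.97 in WT and −5.10, −5.32 and −5.39 in *Plxnb1*-/- SCs, without overlap. Its ratio to the summed fibroblast markers was −4.005, −4.36 and −4.28 in WT and −4.25, −4.30 and −4.35 in *Plxnb1*-/- SCs, with overlap and a mean difference of −0.09. The ratio to fibroblast markers also overlapped for *Ephb4* (mean difference 0.07), *Ephb2* (0.35), *Ephb3* (0.34) and *Efnb1* (0.27). That of *Ephb6* was higher in *Plxnb1*-/- SCs without overlap (0.33). These ratios were added after the values had been seen, and the part of the cell mix in the differences between genotypes was not tested.

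*Efnb2* and *Ephb4* are also genes of endothelium, and *Efnb2* of mural cells. The 6 endothelial markers summed to between 63.9 and 83.5 CPM in WT and between 68.0 and 74.0 CPM in *Plxnb1*-/- cultures, most of it from *Cdh5*, with *Pecam1* between 1.08 and 3.72 CPM. Among them, 2 had higher and 4 had lower values in *Plxnb1*-/- SCs (median log2 fold change −0.19, 0 called by edgeR). Without WT replicate 2 they were 3 higher and 3 lower (median −0.08). The 5 mural markers summed to between 477 and 586 CPM in WT and between 437 and 481 CPM in *Plxnb1*-/- cultures. Of these markers, 4 had higher and 1 had lower values in *Plxnb1*-/- SCs (median log2 fold change 0.12). The lower one, *Cspg4*, made up most of the sum (log2 fold change −0.29, edgeR, adjusted p = 0.308). The 5 macrophage markers lay between 23.0 and 25.3 CPM and between 26.6 and 29.3 CPM, the 5 neuron markers between 13.9 and 18.8 CPM and between 17.6 and 27.8 CPM, and the 3 satellite glia markers between 762 and 883 CPM and between 906 and 933 CPM, for WT and *Plxnb1*-/- in turn. All markers of these 3 lists had higher values in *Plxnb1*-/- SCs, as the SC markers did, with 0 called by edgeR. Their median log2 fold changes were 0.25, 0.37 and 0.06 in turn. Without *Plxnb1*-/- replicate 3, the neuron markers were 3 higher and 2 lower. Most of the satellite glia sum came from *Kcnj10* (log2 fold change 0.16). *Fabp7* (0.06) and *Glul* (0.02) overlapped between the genotypes. No marker of these lists was at 0 in all libraries, and their part in the members' values was not tested.

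**Figure D4:**
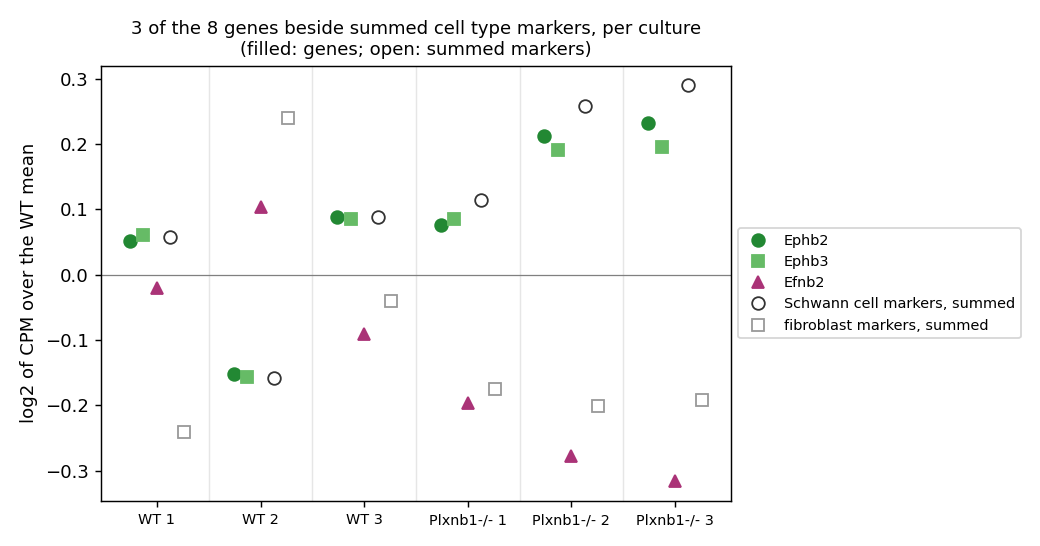
The log2 ratio of the CPM in a culture to the mean of the WT cultures, for *Ephb2*, *Ephb3* and *Efnb2* (filled) and for the summed SC and fibroblast markers (open). WT replicate 2 is lowest for *Ephb2*, *Ephb3* and the SC markers and highest for *Efnb2* and the fibroblast markers. WT replicate 1 is lowest for the fibroblast markers but lies above each *Plxnb1*-/- culture for *Efnb2*.

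Genes that carry the signal of the members onward, cut their proteins or act as their partners were read from 4 lists. These held 42 genes, of which 40 were tested. Their median log2 fold change was 0.02, and 27 had higher and 13 had lower values in *Plxnb1*-/- SCs, beside 51.5% higher among all tested genes. edgeR called 0, with 8 at an unadjusted p below 0.05, beside 13.7% of all tested genes. DESeq2 called 1, beside 2.24% of genes. The genotypes did not overlap for 5 genes with higher and 5 with lower values, which is 25.0% of the 40, beside 19.7% of all tested genes. On the receptor side, the 14 adaptors and kinases of forward signaling were 7 higher and 7 lower (median 0.00066). They ran from *Grb10*, an adaptor of receptor tyrosine kinases (log2 fold change −0.22, edgeR, adjusted p = 0.284), to *Pik3r1*, the regulatory subunit of phosphoinositide 3-kinase (0.18, edgeR, adjusted p = 0.304). Without WT replicate 2 they were at −0.14 and 0.11.

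On the ligand side, 12 of 13 genes of reverse signaling were tested, and 11 of these had higher and 1 had lower values in *Plxnb1*-/- SCs (median 0.07). Both edgeR and DESeq2 called 0 of them, and 2 had an unadjusted p below 0.05 from edgeR. Of all tested genes, 51.5% had higher values and 13.7% had such a p. *Ptpn13*, a phosphatase with PDZ domains that binds and dephosphorylates ephrin-B, measured 149, 145 and 157 CPM in WT and 165, 174 and 179 CPM in *Plxnb1*-/- replicates 1 to 3. Its cultures did not overlap, and its log2 fold change of 0.20 (adjusted p = 0.0360 from DESeq2 and 0.271 from edgeR) is under the threshold of 0.25. DESeq2 gave *Ptpn13* an adjusted p of 0.0598 without WT replicate 1, 0.105 without WT replicate 2, 0.222 without *Plxnb1*-/- replicate 2 and 0.466 without *Plxnb1*-/- replicate 3. The extremes of the list were the PDZ scaffold *Grip2* at 0.91 (edgeR, adjusted p = 0.446), which lay between 0.0938 and 0.649 CPM, and *Rgs3*, a regulator of G proteins that binds ephrin-B, at −0.25 (edgeR, adjusted p = 0.401). *Grip2* was at 0.39 without *Plxnb1*-/- replicate 3, and *Rgs3* at −0.14 without that culture or without WT replicate 2.

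Of 6 proteases that cut ephrin-B or EphB proteins, 5 were tested, with 3 higher and 2 lower (median 0.03). *Mmp9*, a gelatinase that can cleave EphB2, measured 5.42, 10.5 and 6.98 CPM in WT and 3.62, 5.28 and 3.61 CPM in *Plxnb1*-/- SCs. The cultures did not overlap, with WT replicate 2 the highest, and the log2 fold change was −0.87 (adjusted p = 0.273 from edgeR and 0.00955 from DESeq2). Without WT replicate 2 it was −0.57, with an adjusted p of 0.139 from DESeq2. DESeq2 also gave *Mmp9* an adjusted p of 0.108 without *Plxnb1*-/- replicate 1 and of 0.683 without *Plxnb1*-/- replicate 3.

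The last list held partners of the members and the way from EphB2 to N-cadherin, with 6 of 9 genes higher and 3 lower (median 0.00215). *Sox2* measured 85.1, 65.9 and 85.9 CPM in WT and 84.7, 85.1 and 92.4 CPM in *Plxnb1*-/- SCs, with overlap (log2 fold change 0.15, edgeR, adjusted p = 0.523). *Cdh2*, which encodes N-cadherin, had a log2 fold change of 0.13 (edgeR, adjusted p = 0.506) and, like *Sox2*, its lowest value in WT replicate 2. Without that culture the log2 fold change was 0.04 for *Sox2* and 0.03 for *Cdh2*. *Epha4*, an A-class receptor that also binds ephrin-B, had 14.5 ± 1.33 CPM in the WT cultures and 14.6 ± 0.930 in the others (SD, n = 3). *Efna5*, an A-class ligand that also binds EphB2, had 11.2 ± 1.56 and 9.52 ± 0.752 CPM (log2 fold change −0.23, edgeR, adjusted p = 0.375), and its log2 fold change was −0.12 without WT replicate 2.

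**Figure D5:**
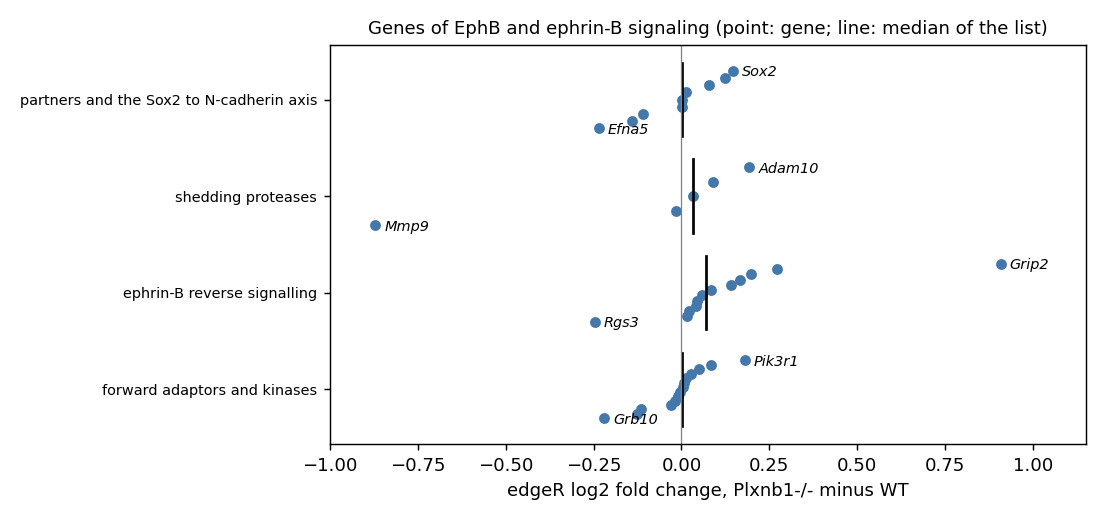
The log2 fold change from edgeR, *Plxnb1*-/- minus WT, of each tested gene in the 4 lists (points), with the median of each list (lines) and the names of its highest and lowest genes. The medians lie between 0.00066 and 0.07, and *Mmp9* (−0.87) and *Grip2* (0.91) are the extremes.

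For the receptor and the ligand with the lowest unadjusted p, the tested genes with the most similar pattern of log2 CPM over the 6 cultures were looked up. For *Ephb6* these were *Sp2*, 4930466K18Rik and *Fuz*, with Pearson's r between 0.985 and 0.990. For *Efnb2* they were *Oaz3*, *Slc16a4* and *Prdm6*, with r between 0.995 and 0.999. Over 6 libraries such values are common, and 257 genes had an r above 0.9 with *Ephb6* and 893 with *Efnb2*.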

How the data were processed

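RNA-seq of poly(A) RNA from 3 WT and 3 *Plxnb1*-/- SC cultures was used, grouped by the sample titles. Per the labels and the study's methods, the authors trimmed reads with Trim Galore 0.6.5, aligned them to mm10 with Bowtie2 2.4.1, which does not span introns, removed duplicates with SAMtools 1.10 and deposited raw exonic counts per gene from featureCounts. FPKM values made from the same counts were not used. Symbols, positions and lengths came from GENCODE M21 (GRCm38), an older release than the authors'.

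Genes that reached 2 counts in 5 or more of the 6 libraries were tested with edgeR 4.0.16 (TMM, quasi-likelihood, R 4.3.3) on genotype alone, with Benjamini-Hochberg adjustment over all tested genes. A call needed an adjusted p under 0.05 and an absolute log2 fold change over 0.25. Standard errors came from the fold change and edgeR's F. DESeq2 1.42.0, the study's tool, was the alternative. With a library left out, the filter asked for 4 libraries. Shares within libraries were compared by exact permutation. Coding sequences were aligned with MAFFT 7.526. Floors of 3 counts cover counting error only.

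The members and gene lists were chosen with earlier results of these data known. Genes were named as members, as the targeted gene, as partners across classes, as *Sox2* and *Cdh2*, and as genes called or at the extremes of a list. *Ptpn13* and the markers were named after their values were seen. The tests were checked on simulated data of 21741 genes, with 100 genes changed by a larger and 100 by a smaller fold. edgeR called 92 of the genes with the larger fold, 61 of those with the smaller fold and 9 unchanged genes. DESeq2 called 96, 68 and 32 in turn. Unchanged genes thus made up a larger part of the calls of DESeq2 than of those of edgeR. The DESeq2 calls of *Efnb2* and *Mmp9* are to be read beside these counts. Both simulated folds were larger than the fold of *Efnb2*, so how often a gene with so small a change is called was not tested. One of the gene lists is not reported here.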

Additional observations from a re-analysis of the deposited data

How the results depend on the processing

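Over 96 alternative values of the members' log2 fold changes, 0 changed sign and 94 kept their side of the threshold. The other 2 were those of *Efnb2*, called by DESeq2 (−0.26) and by edgeR with no filter on low counts (−0.26, adjusted p = 0.0338). Members called thus went from 0 to 1 with DESeq2, with or without the cutoff on the fold change, and with no filter, and with 1 culture left out it was 0 in each edgeR fit and between 0 and 1 in DESeq2. Pathway genes called went from 0 to 1 with DESeq2 and with no filter, and to 2 with DESeq2 and no cutoff. All genes called went from 8 to 335 with DESeq2, 296 with no filter and 5 with the replicate block, and with 1 culture left out to between 4 and 25 in edgeR, the highest without WT replicate 2, and in DESeq2 to 946, 162 and 219 without WT replicates 1 to 3 and 281, 124 and 51 without *Plxnb1*-/- replicates 1 to 3. *Plxnb1* lost its call from edgeR with filterByExpr (log2 fold change −2.08, adjusted p = 0.0715) and without WT replicate 1 or any one of the 3 *Plxnb1*-/- cultures (−2.30 to −1.74 over all left-out cultures), and DESeq2 called it in each such fit. The order of levels kept 4 of 8 ranks with the length of the transcript with the longest coding sequence. The cause of these shifts was not tested. Same-numbered libraries did not deviate together (r between −0.0218 and 0.0653), so the replicate numbers were not taken as pairs, and the block left *Efnb2* at −0.26 (adjusted p = 0.190 from edgeR). DESeq2 with 1 culture left out or with no cutoff, the last-named length, the counts per list with 1 culture left out, and the scalings behind the count of members without overlap, which stayed at 4, were chosen after seeing the data. *Ephb1* and *Efnb3* had at most 66 counts in a library.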
